A study of Mus musculus with 12 samples.

Results

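IgG2c heavy-chain cells are spleen cells whose deposited heavy-chain contig, the assembled B cell receptor sequence of 1 droplet, was assigned to the constant gene of IgG2c. They made up 735 of the 13740 cells with a heavy chain. SLE.yaa mouse 1 held 433 of them, SLE.yaa mouse 2 held 298, WT mouse 1 held 2 and WT mouse 2 held 2. The SLE.yaa mice were males of strain B6.Sle1yaa, which carry the lupus susceptibility interval Sle1 and the Yaa translocation, a piece of the X chromosome with the RNA sensor gene Tlr7 placed on the Y chromosome. The WT mice were males of strain C57BL/6. The deposited age was 14.9 in both SLE.yaa mice and 14.4 in both WT mice, with no unit stated. Spleen cells positive for CD45, a surface protein of white blood cells, were selected with magnetic beads before droplet capture, and each of the 2 mice per group gave 1 expression library and 1 B cell receptor library. The labels give the condition under a tag that mentions chimeras, and no source used here says whether the animals were chimeric.

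B cells first make IgM and IgD. After activation they can exchange the constant gene of the heavy chain, a step called class switching, while keeping the rearranged V, D and J segments that bind antigen. In C57BL/6 mice IgG2c takes the place of IgG2a. Switching to it is promoted by interferon gamma, by Toll-like receptor 7 and by the transcription factor T-bet, and its Fc part binds activating Fc receptors and complement. Anti-nuclear antibodies of this class are a feature of lupus models with extra Tlr7. Somatic mutation and growth of clones are the other marks of antigen-driven B cells. The constant gene Ighg2c lies on chromosome 12 from 113287389 to 113288932 in the RefSeq annotation of GRCm38.p6.

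The receptor libraries held 3594 and 2873 heavy chains in the SLE.yaa mice and 3500 and 3773 in the WT mice. They summed to 4522016 and 1694563 unique molecular identifiers (UMIs, tags that count original RNA molecules) in the SLE.yaa mice, against 69172 and 70908 in the WT mice. IgG2c contigs had a median of 3629 UMIs in SLE.yaa 1 and 1453.5 in SLE.yaa 2, where IgM contigs had medians of 17 and 9. With so few members in the WT mice, the IgG2c cells of the SLE.yaa mice were set against cells of other isotypes from the same mice.

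The IgG2c cells of the SLE.yaa mice fell into 312 and 210 clones, groups of cells that the authors assigned to 1 common ancestor. The junctions of the 5 clones with most IgG2c cells in each SLE.yaa mouse are shown because the V-D-J junction identifies a clone. Each line gives the commonest junction of the clone from the conserved cysteine codon to the conserved tryptophan codon, 5′ to 3′, as deposited, and capitals mark the bases that differ between cells of the clone. All heavy-chain segments lie on chromosome 12.

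SLE.yaa 1 clone 1, IGHV1-82 with IGHJ3: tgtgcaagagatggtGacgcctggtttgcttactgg
SLE.yaa 1 clone 2, IGHV1-26 with IGHJ2: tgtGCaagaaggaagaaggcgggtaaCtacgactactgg
SLE.yaa 1 clone 3, IGHV2-2 with IGHJ4: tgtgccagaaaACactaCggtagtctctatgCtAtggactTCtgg
SLE.yaa 1 clone 4, IGHV5-9-1 with IGHJ4: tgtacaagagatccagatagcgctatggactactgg
SLE.yaa 1 clone 5, IGHV1-75 with IGHJ4: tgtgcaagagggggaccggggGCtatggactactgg
SLE.yaa 2 clone 1, IGHV3-6 with IGHJ4: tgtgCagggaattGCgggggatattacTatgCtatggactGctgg
SLE.yaa 2 clone 2, IGHV1-72 with IGHJ4: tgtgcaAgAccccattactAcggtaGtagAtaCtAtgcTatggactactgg
SLE.yaa 2 clone 3, IGHV1-53 with IGHJ3: tgtgcgatctataggtcgtttgcttactgg
SLE.yaa 2 clone 4, IGHV1-76 with IGHJ4: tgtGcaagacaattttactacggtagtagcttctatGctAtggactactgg
SLE.yaa 2 clone 5, IGHV1-4 with IGHJ4: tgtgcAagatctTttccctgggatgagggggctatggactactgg

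Clone 4 of SLE.yaa 1 and clone 3 of SLE.yaa 2 had a single junction in all 12 cells of each, while 8 junction positions varied among the 20 cells of clone 2 of SLE.yaa 2. The V segments of the largest clone without any other isotype in each mouse are shown next, beside the germline sequence deposited with them, to show what mutation looked like. The IgG2c line gives the commonest sequence of the clone, capitals mark the positions at which the pair differs, and positions are counted from 1 at the first base shown.

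SLE.yaa 1 clone 1, IGHV1-82, IgG2c cells: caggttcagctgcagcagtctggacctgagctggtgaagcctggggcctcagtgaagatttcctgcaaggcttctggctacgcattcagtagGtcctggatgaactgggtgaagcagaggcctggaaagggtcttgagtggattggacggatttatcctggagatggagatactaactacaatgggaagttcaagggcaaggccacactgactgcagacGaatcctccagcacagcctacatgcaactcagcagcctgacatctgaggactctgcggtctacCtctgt
SLE.yaa 1 clone 1, IGHV1-82, germline: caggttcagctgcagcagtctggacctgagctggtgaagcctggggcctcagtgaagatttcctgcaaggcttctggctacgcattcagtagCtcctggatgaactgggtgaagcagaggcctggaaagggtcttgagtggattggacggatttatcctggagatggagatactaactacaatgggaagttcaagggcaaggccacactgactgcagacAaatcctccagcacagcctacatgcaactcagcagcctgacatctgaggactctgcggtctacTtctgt
SLE.yaa 2 clone 3, IGHV1-53, IgG2c cells: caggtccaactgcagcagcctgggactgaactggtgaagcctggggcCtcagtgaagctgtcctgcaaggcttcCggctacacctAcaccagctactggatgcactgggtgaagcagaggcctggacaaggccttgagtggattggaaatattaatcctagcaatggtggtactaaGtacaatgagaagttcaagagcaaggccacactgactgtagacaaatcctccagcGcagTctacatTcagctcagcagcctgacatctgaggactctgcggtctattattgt
SLE.yaa 2 clone 3, IGHV1-53, germline: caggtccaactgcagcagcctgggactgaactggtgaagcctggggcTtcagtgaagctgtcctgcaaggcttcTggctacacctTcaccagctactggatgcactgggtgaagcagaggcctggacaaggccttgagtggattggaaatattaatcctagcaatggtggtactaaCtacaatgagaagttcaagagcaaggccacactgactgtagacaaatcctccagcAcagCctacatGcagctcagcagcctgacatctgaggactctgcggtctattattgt

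The commonest sequence of clone 1 of SLE.yaa 1, found in 30 of its 31 cell barcodes, carried the changes C93G, A220G and T283C, with the germline base first. The commonest sequence of clone 3 of SLE.yaa 2, found in 3 of 12 cells, carried T48C, T75C, T86A, C177G, A232G, C236T and G243T.

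The first question was how often IgG2c occurred in each group. IgG2c cells were frequent in both SLE.yaa mice and rare in both WT mice. They made up 12.2% of the cells with an isotype in SLE.yaa 1 (exact 95% interval 11.2 to 13.3%) and 10.5% in SLE.yaa 2 (9.37 to 11.7%), against 0.0572% in WT 1 (0.00693 to 0.206%) and 0.0531% in WT 2 (0.00643 to 0.192%). The groups did not overlap, and the share was 7.60 higher on the log2 scale in the SLE.yaa mice (edgeR quasi-likelihood test over 8 isotypes, adjusted p = 2.11e-06, higher in 2 of 2 mice). Of the 8 isotypes, 7 (87.5%) passed this test, 6 of them higher in SLE.yaa. IgG2c had the largest change, before IgG2b at 5.31 and IgG3 at 5.06, while IgM was lower by -0.69. The isotype shares sum to 1, and with scaling factors that centre the isotypes the IgG2c change was 3.78 (TMM factors, adjusted p = 0.000156). Intervals cover counting error only.

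IgG2c was also the commonest switched isotype in the SLE.yaa mice. Among all cells with IgG, IgA or IgE it held 50.4% (433 of 859) in SLE.yaa 1 and 49.8% (298 of 598) in SLE.yaa 2, against 6.90% (2 of 29) in WT 1 and 18.2% (2 of 11) in WT 2. The plot of IgG2c shares shows the wide intervals of the WT mice, which had few switched cells of any class.

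**Figure D1:**
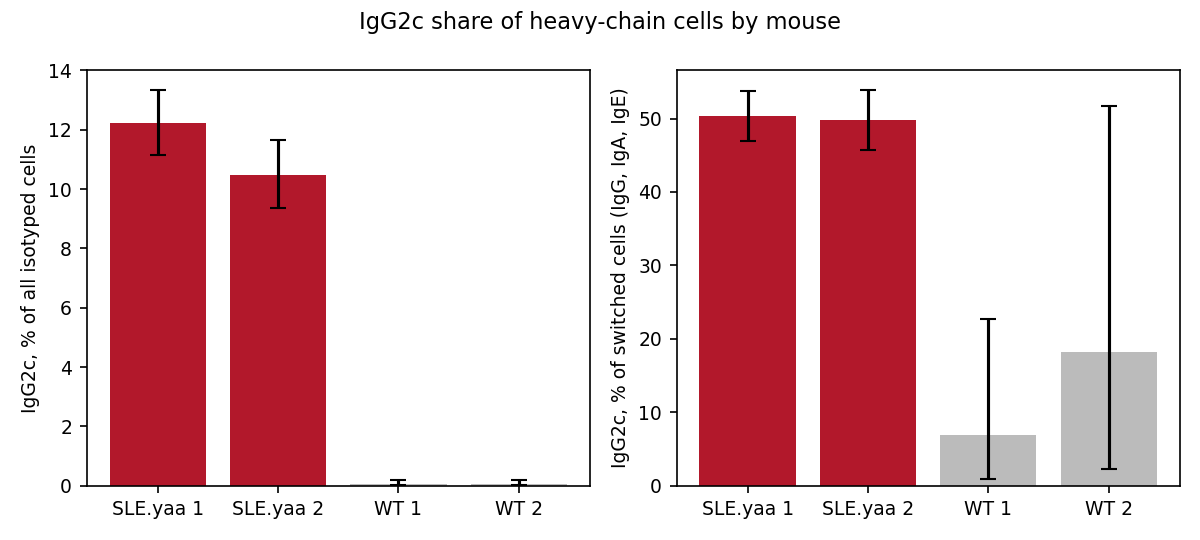
IgG2c cells in each mouse as a percentage of all cells with an isotype (left) and of all switched cells (right); bars are shares of 1 mouse each and lines are exact 95% binomial intervals. Both SLE.yaa mice stand above 10% on the left, and the WT mice, at 0.0572 and 0.0531%, are barely visible.

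Next, the label was checked against gene expression. IgG2c cells were mostly annotated as plasma cells, the cells that secrete antibody. Of the IgG2c cells that the authors annotated, 84.8% (123 of 145) were plasma cells in SLE.yaa 1 and 74.2% (112 of 151) in SLE.yaa 2, where the IgM cells had 6.47% and 4.17%. A further 16 and 38 IgG2c cells were annotated as B cells. The plasma cell majority was not particular to IgG2c. Of the IgG2b cells, 57 and 69 were annotated as plasma cells and 22 and 23 as B cells. IgG3 had 17 and 31 plasma cells and 2 and 8 B cells. Many IgG2c cells, 66.5% in SLE.yaa 1 and 49.3% in SLE.yaa 2, were absent from the expression table, against 23.2% and 17.0% of IgM cells. IgG2b cells were absent from it about as often, 167 of 250 and 87 of 181. That table holds no cell with more than 2999 genes, and 58.4% of its plasma cells in the SLE.yaa mice had over 2500 genes, against 10.1% of its B cells; the part of such a limit in the loss of IgG2c cells was not tested.

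The receptor label and the expressed constant gene matched in nearly every plasma cell. Ighg2c was the highest of the heavy-chain constant genes in 122 of 123 IgG2c plasma cells of SLE.yaa 1 and in 112 of 112 of SLE.yaa 2. Its level was 122679 and 170032 units in IgG2c plasma cells, 402 and 706 in IgG2b plasma cells and 89.1 and 65.4 in IgM plasma cells. A unit is the authors' depth-adjusted number, averaged over the cells of a mouse and scaled to a sum of 1000000 over all genes. Of the plasma cell genes, Sdc1, which encodes the surface marker CD138, was detected in 84.6% and 76.8% of IgG2c plasma cells, and Xbp1, a regulator of secretion, and Mzb1, a chaperone for immunoglobulin, in 100% of them in both mice. Prdm1, a plasma cell gene as well, was detected in only 37.4% and 37.5%, and Irf4 in 74.8% and 81.3%. The B cell genes Ms4a1 (CD20) and Pax5 were detected in 4.88% and 8.93%, and in 4.07% and 0.893%. Other B cell genes were common in these plasma cells, with Cd79a in 93.5% and 98.2% and Cd79b in 98.4% and 94.6%.

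The match was weaker in cells annotated as B cells. Ighg2c was the highest constant gene in 9 of 16 IgG2c B cells of SLE.yaa 1 and in 27 of 38 of SLE.yaa 2, and their contigs had a median of only 10 and 8.5 UMIs. These cells were a mixed group, as 2 of 16 and 9 of 38 contigs had at least 100 UMIs. The depth-adjusted Ighg2c value per cell had medians of 1.5 and 3.5 but means of 105 and 262. The IgG2c B cells carried B cell genes: Cd79a, a chain of the B cell receptor, was detected in 100% and 97.4% of them and Ms4a1 in 93.8% and 68.4%. Plasma cell genes were mixed in them. Sdc1 was detected in 12.5% and 15.8% and Prdm1 in 6.25% and 10.5%. Xbp1 was detected in 37.5% and 34.2%, Jchain in 43.8% and 34.2% and Mzb1 in 87.5% and 94.7%. Mzb1 was also detected in 78.2% and 74.7% of the IgM B cells of these mice. Ighg2c was also detected in 25.4% and 20.3% of the IgM B cells of the SLE.yaa mice, against 0 of 2539 in WT 1 (which allows up to 0.118%) and 0.0354% in WT 2. Whether contigs of IgG2c B cells came from RNA outside the cell was not tested.

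V gene use of IgG2c clones was broad. IgG2c clones used 69 IGHV genes in SLE.yaa 1 and 62 in SLE.yaa 2, or 78 of the 97 genes found over all heavy chains. The IGHV1 family held 60.3% and 64.8% of IgG2c clones, against 60.0% and 60.7% of IgM clones. IGHV1-26 was the most used gene in SLE.yaa 1, with 8.01% of IgG2c clones against 6.41% of IgM clones, and had 5.71% against 4.95% in SLE.yaa 2. IGHV1-64 led in SLE.yaa 2, with 9.05% of IgG2c clones against 3.86% of IgM clones, but had 2.88% against 3.26% in SLE.yaa 1. The direction of IGHV1-64 thus differed between the 2 mice, and over both its log2 change was 0.63 (edgeR, adjusted p = 0.82).

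Of 65 IGHV genes tested between IgG2c and IgM clones, 1 passed (1.54%), and it was higher in IgG2c. IGHV1-7 had 2 of the IgG2c clones of SLE.yaa 1 (0.641%) and 9 of those of SLE.yaa 2 (4.29%), against 9 IgM clones (0.498%) and 2 IgM clones (0.146%) in the same mice. The log2 change was 2.58 (edgeR, adjusted p = 0.0110). It was 0.61 in SLE.yaa 1 alone against 4.63 in SLE.yaa 2 alone, so it rests mainly on SLE.yaa 2. The fit used a spread estimated over all IGHV genes, so the p-value does not hold this gene's own difference between the mice. The gene lies on chromosome 12 from 114538495 to 114538788 (GRCm38.p6). Its 9 IgG2c clones in SLE.yaa 2 held 12 cells with 9 different junctions, CDR3 lengths of 9 to 16 residues and 0.293 to 2.05% mutated bases, and 6 of the cells were annotated as plasma cells. The 2 IgM clones of this gene in SLE.yaa 2 held 8 cells with 7 different junctions, so the contrast depends on how cells were grouped into clones. The call was lost when cells were counted in place of clones (log2 change 1.79, adjusted p = 0.684), with DESeq2 (2.91, adjusted p = 0.406) and when only IgG2c and IgM entered the fit (2.58, adjusted p = 0.517).

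The same gene was the 1 of 65 (1.54%) that passed against IgD clones, with a log2 change of 3.92 (edgeR, adjusted p = 0.00111), the IgG2c clones being those of the IgM comparison. Against IgG2b clones 0 of 65 genes passed in edgeR (0%), with 3 at an unadjusted p under 0.05, and IGHV1-7 had 0.641% and 4.29% of IgG2c clones against 2.21% and 0.980% of IgG2b clones. IGHV14-4 had 2.88% and 2.38% of IgG2c clones against 1.05% and 0.947% of IgM clones. That is higher in both mice, but its log2 change of 1.37 did not pass (edgeR, adjusted p = 0.478).

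The other most used genes did not pass the test. IGHV1-19 had 2.88% and 2.38% of IgG2c clones against 1.05% and 1.97% of IgM clones, higher in both mice. IGHV1-55 had 4.17% and 1.90% against 2.21% and 2.19%. IGHV8-8 had 4.81% and 2.86% against 4.31% and 5.10%. The other genes were IGHV3-6 (3.21% and 4.76% against 4.09% and 3.06%), IGHV9-3 (3.53% and 4.29% against 2.99% and 3.79%), IGHV1-69 (2.56% and 2.86% against 2.10% and 2.26%) and IGHV1-80 (2.56% and 2.38% against 2.99% and 2.33%). In 21 of the IgG2c chains more than 1 IGHV gene was called, and the first was used.

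**Figure D2:**
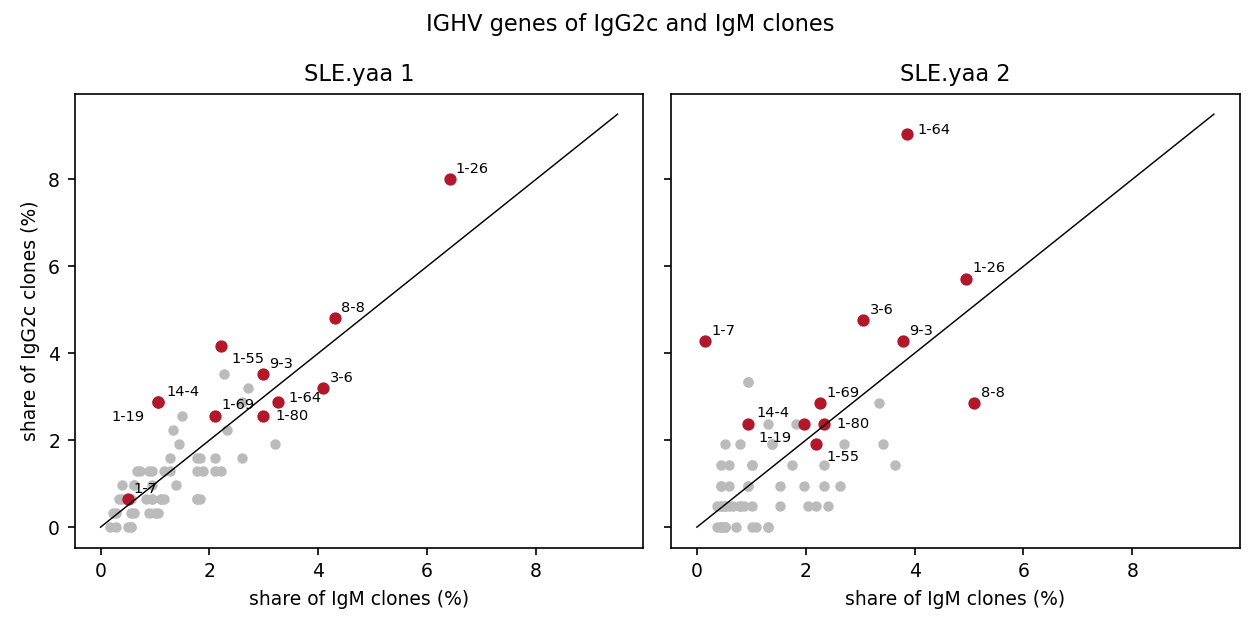
Each point is 1 IGHV gene, with its share of IgG2c clones (vertical axis, %) against its share of IgM clones (horizontal axis, %) in SLE.yaa 1 (left) and SLE.yaa 2 (right); red points are the genes named in the text and the line marks equal shares. IGHV1-7 stands far above the line in SLE.yaa 2, at 4.29 against 0.146%, and near it in SLE.yaa 1.

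J gene use was close to that of IgM clones. IGHJ2 held 30.8% and 35.7% of IgG2c clones against 29.4% and 29.9% of IgM clones, and IGHJ4 held 26.3% and 27.6% against 30.4% and 28.3%. IGHJ1 had 19.6% and 15.2% against 17.4% and 15.9%, and IGHJ3 had 23.4% and 21.4% against 22.8% and 25.9%. IGHJ2 was higher and IGHJ4 lower in IgG2c clones of both mice, and IGHJ1 and IGHJ3 moved in opposite directions in the 2 mice; J genes were not tested.

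IgG2c heavy chains were mutated, at a low frequency. The mean over clones of the mutated share of V-region and J-region bases was 1.02% in SLE.yaa 1 and 0.887% in SLE.yaa 2, against 0.0972% and 0.0895% in IgM clones and 0.0233% and 0.0226% in IgD clones. IgG2b clones had 0.988% and 1.003%, and IgG3 clones 0.882% and 0.933%. The IgG2c values thus lay apart from IgM and IgD in both mice and overlapped those of IgG2b and IgG3. The difference from IgM averaged 0.859 percentage points. An exact two-sided permutation test gave p = 0.333, the smallest it can give with 2 mice per isotype. It treated the isotypes as separate groups and did not pair the values of a mouse. The deposited identity of the V segment to germline averaged 0.989 over IgG2c cells of SLE.yaa 1 and 0.990 over IgG2c cells of SLE.yaa 2, and its lowest IgG2c value was 0.919.

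A sizeable part of IgG2c clones carried no mutation at all. Unmutated clones were 27.6% of IgG2c clones in SLE.yaa 1 and 27.6% in SLE.yaa 2, against 87.7% and 89.8% of IgM clones. This was not particular to IgG2c, as IgG2b clones had 30.9% and 21.6% and IgG3 clones 27.5% and 27.1%. In SLE.yaa 1, 24.02% of IgG2c cells had 0 mutated bases, 31.4% had 3 to 5 and 8.31% had 10 or more, up to a highest count of 24. In SLE.yaa 2 the shares were 24.8%, 26.2% and 4.36%, with a highest count of 15. Clones of at least 2 cells had means of 1.20% and 1.13%, against 0.956% and 0.822% in clones of 1 cell.

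Mutations were denser where the heavy chain touches antigen. The loops CDR1 and CDR2 held 32.2% and 31.6% of the V mutations of IgG2c clones, on 16.8% and 16.7% of the V bases. Mutations that change the amino acid outnumbered silent ones by 3.78 and 5.24 to 1 in these loops, against 1.98 and 2.35 to 1 in the framework. IgG2b clones had like values, with 30.9% and 30.1% of their V mutations in the loops.

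Mutation was also compared within annotated cell types. Among plasma cells, IgG2c clones had 0.874% and 0.919% mutated bases and IgM clones 0.517% and 1.01%, so the values overlapped (difference 0.133 percentage points, exact two-sided permutation p = 1, n = 2 mice). Unmutated clones were 32.0% and 28.6% of IgG2c plasma cell clones against 63.4% and 35.0% of IgM ones. Among cells annotated as B cells, IgG2c clones had 1.49% and 0.800% against 0.0517% and 0.0566% in IgM clones, a difference in both mice. The exact permutation test gave p = 0.333, the smallest that this unpaired test can give with 2 mice. Plasma cells were the majority of annotated IgG2c cells and a small minority of annotated IgM cells, as given above.

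**Figure D3:**
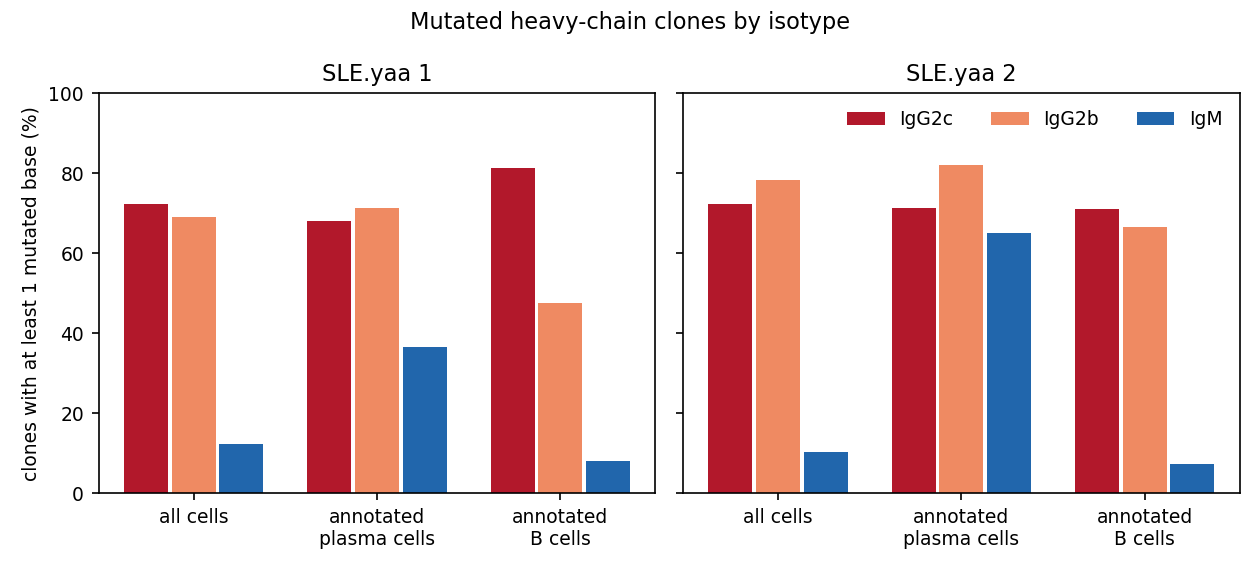
Percentage of clones with at least 1 mutated base among IgG2c, IgG2b and IgM clones of SLE.yaa 1 (left) and SLE.yaa 2 (right), for all cells, annotated plasma cells and annotated B cells; each bar is 1 mouse. The IgM bars are low for all cells and for B cells and higher for plasma cells, where 63.4 and 35.0% of IgM clones were unmutated.

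The CDR3 loop, the part of the heavy chain that the junction encodes, was slightly longer in IgG2c than in IgM clones. Its mean length was 12.5 and 12.6 residues in IgG2c clones against 12.2 and 12.1 in IgM clones, a difference of 0.399 residues. Among plasma cells the gap was wider, with 12.64 and 12.56 residues in IgG2c clones against 11.73 and 11.63 in IgM clones (difference 0.921), and IgG2b plasma cell clones had 11.76 and 12.15. IgG3 plasma cell clones had 13.29 and 12.05, which overlapped IgG2c. IgG2c and IgM did not overlap over all cells or among plasma cells, and the exact permutation test gave its smallest possible p of 0.333 for each.

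The charge of the CDR3, counted as lysine and arginine minus aspartate and glutamate, was negative on average. IgG2c clones had means of -0.388 and -0.548, against -0.391 and -0.325 in IgM clones, so the values overlapped (difference -0.110, exact permutation p = 0.667). CDR3s with a charge of +2 or more, a feature that has been linked to DNA binding, were 5.13% of IgG2c clones in SLE.yaa 1 (16 clones) and 0.476% in SLE.yaa 2 (1 clone), against 5.14% and 5.39% of IgM clones. The low share was thus seen in SLE.yaa 2 and not in SLE.yaa 1. IgG2b clones had 6.63% and 0.980%.

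Clonal growth was common among IgG2c cells. Cells in clones with at least 2 IgG2c cells were 41.1% of IgG2c cells in SLE.yaa 1 and 40.9% in SLE.yaa 2, against 9.58% and 4.80% for IgM counted in the same way. IgG2b had 42.4% and 59.1%, and IgD 0.266% and 0.721%. Drawn at random to 181 cells per isotype, the smallest number among these groups, the shares were 27.2% and 34.3% for IgG2c, 36.6% and 59.1% for IgG2b, and 2.62% and 1.41% for IgM. IgG2c stayed above IgM at equal numbers in both mice. It averaged below IgG2b in both, but in SLE.yaa 1 the ranges over the draws overlapped (20.4 to 33.7% for IgG2c against 31.5 to 42.0% for IgG2b). In SLE.yaa 2 each draw took all 181 IgG2b cells, so IgG2b had no range there to compare. With clones redefined as the same V gene, J gene and CDR3 bases, the shares without a draw were 30.9% and 25.5% for IgG2c, against 26.8% and 33.1% for IgG2b and 7.25% and 2.96% for IgM. The order of IgG2c and IgG2b then differed between the mice.

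The largest clones differed in how varied their members were. Clone 1 of SLE.yaa 1, with IGHV1-82, had 31 IgG2c cells and no other isotype. These cells held 2 distinct sequences, 28 of them were absent from the expression table, and their contigs had 11 to 314 UMIs with a median of 161. Whether these 31 barcodes are separate cells was not tested. An IgM clone of 15 cells in the same mouse, also with IGHV1-82, had 2 distinct sequences and a median of 110 UMIs. Without the clone of 31 cells, 36.6% of IgG2c cells in SLE.yaa 1 were in clones of at least 2.

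Other large clones were diverse in sequence, rich in RNA or spread over isotypes. Clone 2 of SLE.yaa 2, with IGHV1-72, had 20 distinct sequences in 20 cells, of which 13 were IgG2c, 5 IgG2b, 1 IgG3 and 1 IgA. Clone 1 of that mouse, with IGHV3-6, had 15 IgG2c cells and 1 IgG2b cell with 13 distinct sequences. Clone 4 of SLE.yaa 1, with IGHV5-9-1, had 6 IgG2c, 4 IgG1 and 2 IgA cells with 3 distinct sequences, 0 to 2 mutated bases and a median of 8360.5 UMIs. Clone 5 of SLE.yaa 1, with IGHV1-75, had a median of 12207 UMIs, and 7 of its 9 cells were annotated as plasma cells. The most mutated of the 10 was clone 5 of SLE.yaa 2, with IGHV1-4 and 6 to 14 mutated bases per cell.

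**Figure D4:**
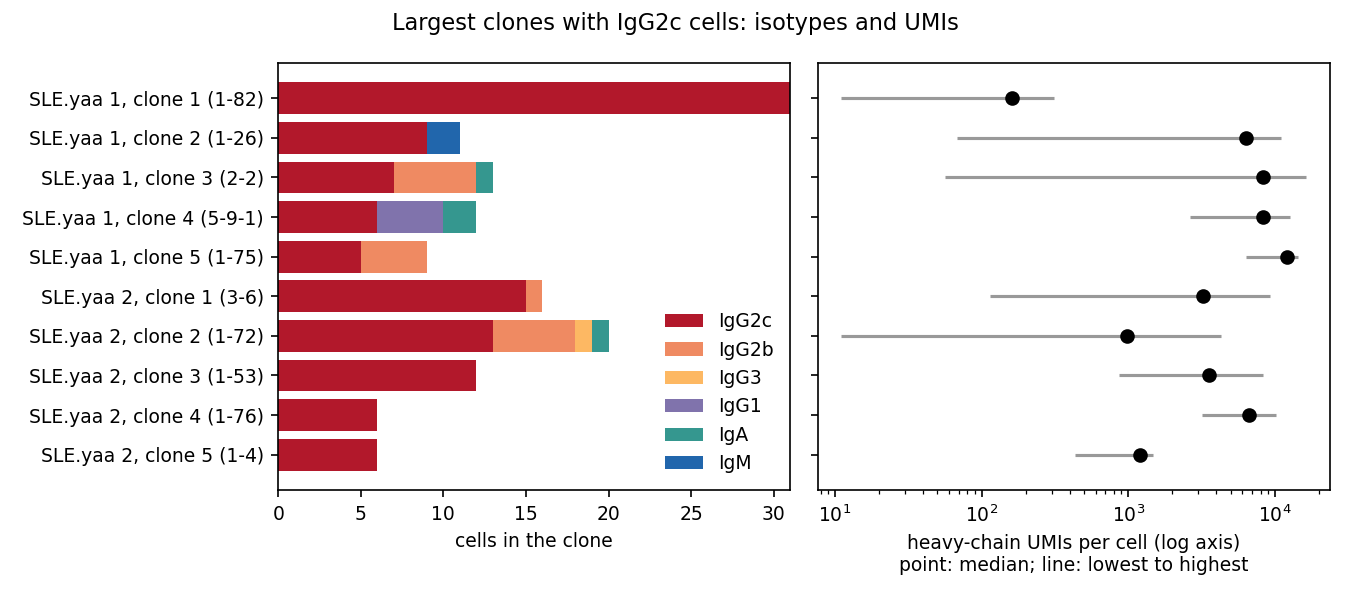
The 5 clones with most IgG2c cells in each SLE.yaa mouse, with the cells of each isotype (left, bars) and the heavy-chain UMIs per cell (right, log axis, median and range); the IGHV gene stands in brackets. The clone of 31 cells has the lowest median, 161 UMIs, and 6 of the 10 clones hold another isotype.

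By count, IgG2b was the commonest partner of IgG2c within clones. Of the IgG2c clones, 34 of 312 (10.9%) in SLE.yaa 1 and 21 of 210 (10.0%) in SLE.yaa 2 also held a cell of another isotype. With clones redefined by identical CDR3 bases the shares were 6.73% and 6.45%. IgG2b was the partner in 21 and 14 of them, IgA in 7 and 6, IgM in 3 and 5, IgG3 in 3 and 3 and IgG1 in 3 and 1, while IgD and IgE were partners in 0, which allows up to 0.962% and 1.43% of the clones. Counted over clones with at least 2 cells, which alone can show a link, 42.0% (34 of 81) and 46.7% (21 of 45) were linked. Of the IgG2b clones, 16.6% and 17.6% held another isotype. The partner isotypes differed in their number of clones. IgG2b had 181 and 102 clones, of which 11.6% and 13.7% held IgG2c, and IgA had only 38 and 25, of which 7 and 6 did. The count of links to IgG2b thus does not show a preference for it.

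Within linked clones, mutation was compared between the isotypes. In clones shared with IgG2b, the IgG2c cells had 1.58% mutated bases against 1.31% in the IgG2b cells of SLE.yaa 1, and 1.16% against 1.03% in SLE.yaa 2. IgG2c was higher in 12 clones, lower in 6 and equal in 3 in SLE.yaa 1, and higher in 7 and lower in 7 in SLE.yaa 2. In the 3 and 5 clones shared with IgM, the IgG2c cells had 0.596% and 0.788% against 0.198% and 0.612% in the IgM cells. IgG2c was higher than IgM in 2 of the 3 clones and in 2 of the 5.

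Gene expression was compared first among annotated plasma cells, between 123 and 112 IgG2c cells and 96 and 49 IgM cells of SLE.yaa 1 and SLE.yaa 2, with levels averaged per mouse. Immunoglobulin genes were left out before scaling, and the units here also hold the TMM factor of each mouse and isotype. In IgG2c plasma cells 83 genes were higher and 121 lower than in IgM plasma cells, or 204 of 9110 tested (2.24%; limma, adjusted p under 0.05), and each of them moved the same way in both mice. IgG2c plasma cells had more RNA of Slpi, Crip1, Epcam and Cxcr3 and less of Txndc5, Tnfrsf17, Serpina3g and Prdm1. Against IgG2b plasma cells (57 and 69 cells), 0 of 9110 genes passed in limma (0%), with 361 at an unadjusted p under 0.05. When values were scaled to the sum only, 192 genes were higher and 158 lower than in IgM plasma cells.

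Slpi, which encodes a secreted inhibitor of neutrophil elastase, was the gene most raised. Its level was 22191 and 12257 units in IgG2c plasma cells, against 10798 and 7572 in IgG2b and 2568 and 2903 in IgM plasma cells. The log2 change from IgM was 2.59 (SE 0.20, limma, adjusted p = 2.53e-07). The median per cell was 26 and 7 in IgG2c plasma cells against 2.5 and 1 in IgM plasma cells, and the groups of mice did not overlap.

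Genes of the cell surface and the cell skeleton were among the others that were higher. Epcam, an adhesion molecule, had 324 and 340 units in IgG2c plasma cells against 72.5 and 119 in IgM plasma cells (log2 change 1.73), and was detected in 63.4% and 69.6% of cells against 22.9% and 28.6%. Cldn7, a tight junction protein that binds Epcam, had 49.0 and 45.0 against 0 and 10.3 (2.00). The LIM protein gene Crip1 had 550 and 486 against 129 and 124 (1.95). Each of these was higher in IgG2c in both mice without overlap. Coro1a, an actin regulator of white blood cells, changed by 1.78, but by 1.13 in SLE.yaa 1 alone against 2.44 in SLE.yaa 2 alone. The signalling adaptor Traf5 changed by 1.64, and by 0.82 and 2.46 in the mice taken singly. The Traf5 call was lost with a pseudocount of 1 (limma, adjusted p = 0.0563) and without the mouse as replicate block (0.0597).

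A metabolic enzyme, a transporter and a transcript of unnamed function were among the largest increases as well. Upp1, a uridine phosphorylase, changed by 1.81, the transporter gene Slc16a5 by 1.59 and the transcript 9530018F02Rik by 2.04. Of these, Upp1 was the lowest, with 32.0 and 27.0 units in IgG2c plasma cells against 2.59 and 0 in IgM plasma cells, and its call was lost without a filter on low values (limma, adjusted p = 0.0566). All 9 genes named here as most raised had higher levels in IgG2b than in IgM plasma cells of the same mice, as the plot of plasma cell genes shows.

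Txndc5 and Tnfrsf17 were among the genes that were lower. Txndc5, a disulfide isomerase of the endoplasmic reticulum, had 1061 and 945 units in IgG2c plasma cells against 6162 and 5429 in IgM plasma cells (log2 change -2.52, SE 0.15, limma, adjusted p = 3.90e-09). It was detected in 86.2% and 86.6% of IgG2c plasma cells and in 100% of IgM plasma cells of both mice. Tnfrsf17, which encodes BCMA, a receptor for survival signals of plasma cells, had 62.2 and 69.7 against 381 and 371 (-2.35) and was detected in 22.0% and 19.6% of cells against 74.0% and 69.4%. Both genes were thus lower in IgG2c in each mouse by about the same factor.

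Serpin genes and the gene of an inhibitory receptor were lower too. The serpin genes Serpina3g and Serpina3f had 13.2 and 33.7 against 215 and 289 units (log2 change -3.02) and 5.65 and 18.0 against 93.2 and 191 (-2.78). Cd200, a surface protein that restrains myeloid cells, changed by -2.39 (the call was lost with a pseudocount of 1, limma, adjusted p = 0.0861), the phosphatase gene Ptpn6 (SHP-1) by -2.39 and the inhibitory receptor gene Btla by -2.32. Ctsc, a lysosomal protease, changed by -2.38, the cell cycle regulator Rgcc by -2.33 and the noncoding transcript Kcnmb4os2 by -2.21. All of them were lower in IgG2c than in IgM plasma cells of both mice without overlap.

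**Figure D5:**
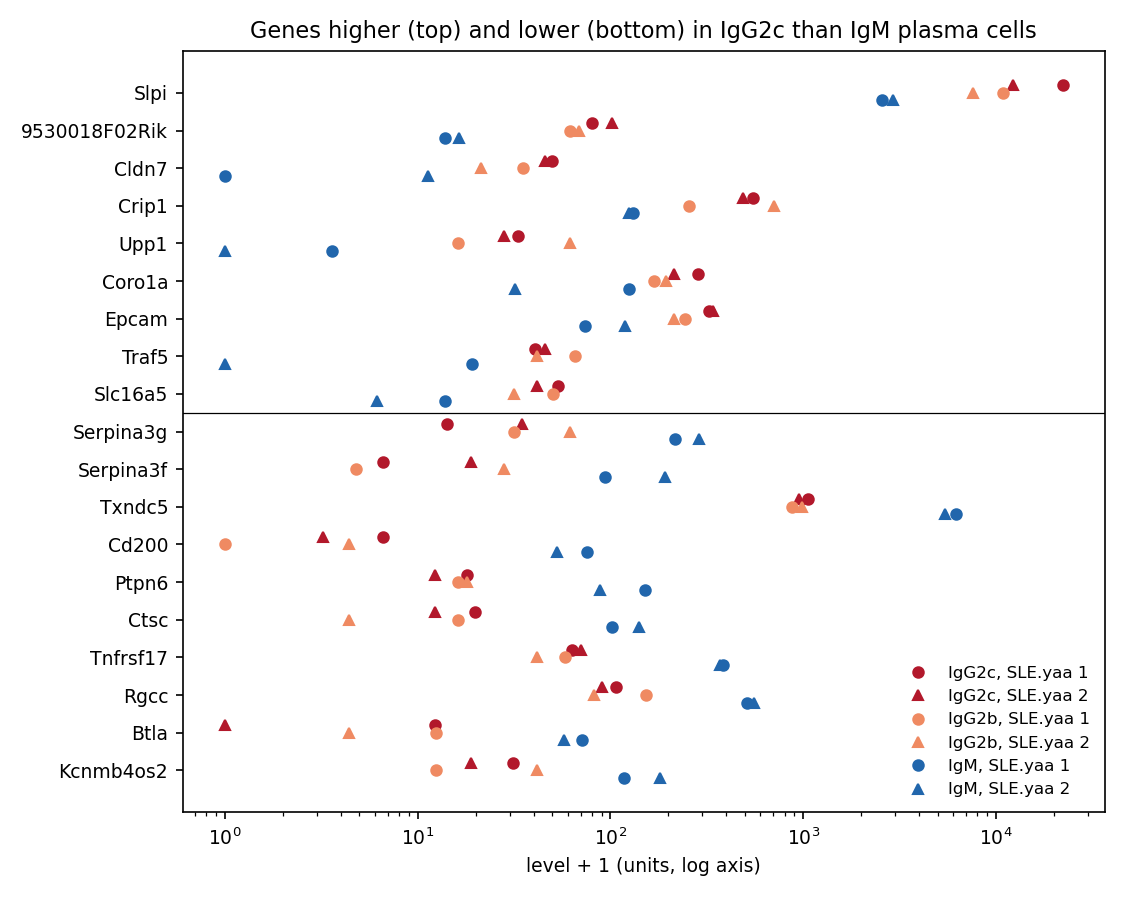
Levels in IgG2c, IgG2b and IgM plasma cells of both SLE.yaa mice (level plus 1, log axis; 1 point per mouse and isotype) for 9 of the genes most raised (above the line) and the 10 most lowered (below it) in IgG2c against IgM. IgG2b points lie on the IgG2c side of the IgM points in each row, for example 10798 and 7572 for Slpi.

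Gene lists gave few further calls, where 204 of all 9110 genes tested had passed (2.24%). Of 16 genes for plasma cells and secretion, 1 was higher and 2 were lower, with a median log2 change of 0.16 beside 0.01 over all genes. The higher one was Fkbp11, a folding enzyme of the secretory pathway, at 0.84. The lower ones were Tnfrsf17 and Prdm1, the master regulator of plasma cells, which had 111 and 119 units in IgG2c against 205 and 263 in IgM plasma cells (-0.95). Jchain, which links IgM into pentamers, had a log2 change of -0.78 that did not pass (limma, adjusted p = 0.0985), and Xbp1 (0.43), Irf4 (-0.21) and Sdc1 (-0.09) did not pass either.

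Interferon genes gave 1 call, where 2.24% of all genes tested had passed. Of 8 type I interferon genes tested, Bst2, which tethers viruses to the cell, was higher, with 792 and 882 units in IgG2c against 375 and 407 in IgM plasma cells (log2 change 1.08), and the list's median was 0.50. Of 12 interferon gamma genes, 0 passed, with a median of 0.64; Igtp, a GTPase of that response, had a log2 change of 0.68 (limma, adjusted p = 0.0695). Cxcr3, a chemokine receptor under the control of T-bet and 1 of 8 age-associated B cell genes tested, was the single gene of that list to pass, with 204 and 166 against 75.1 and 87.7 units (1.09). Tbx21, which encodes T-bet itself, had 11.3 and 13.5 against 23.3 and 0 units, so its groups overlapped.

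Genes of B cell receptor signalling gave 3 calls, all lower, where 204 of all 9110 genes tested had passed (2.24%), 121 of them lower. Of 16 such genes and endosomal sensors tested, the kinases Blk (log2 change -1.999) and Lyn (-1.47) and the phosphatase Ptpn6 passed, and the median was -0.36. Tlr7 had 18.8 and 18.0 units in IgG2c against 36.2 and 41.2 in IgM plasma cells, a log2 change of -0.78 that did not pass (limma, adjusted p = 0.261). Pdcd1lg2 (PD-L2), 1 of 7 memory genes tested, was lower by -1.52, and Btla was 1 of 5 naive B cell genes. Basp1, 1 of 5 germinal centre genes tested, was higher by 1.22, and the microtubule regulator Stmn1, 1 of 7 proliferation genes, passed at 15.1 and 24.7 units in IgG2c plasma cells, where IgM plasma cells were listed at 0 in both mice. The calls of Lyn, Stmn1 and Pdcd1lg2 were lost with a pseudocount of 1 (limma, adjusted p = 0.128, 0.224 and 0.277) and without the replicate block (0.105, 0.0961 and 0.0834), and that of Lyn also without a filter on low values (0.0823). No gene passed among 5 marginal zone genes (median 0.11) or 6 MHC class II genes (0.19).

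Markers of other cells were low in these plasma cells. The summed level of 7 T cell genes was 50.9 and 18.0 units in IgG2c against 20.7 and 0 in IgM plasma cells, that of 6 neutrophil genes 32.0 and 27.0 against 20.7 and 25.8, and that of 5 erythroid genes 1.88 and 8.999 against 0 and 0. The 9 monocyte genes summed to 1862 and 3769 against 1468 and 3042, most of it from Ly6c2, which plasma cells express, and 0 of the 4 that were tested passed. Median genes per cell were 2668 and 2537 in IgG2c and 2444 and 2518 in IgM plasma cells, and the immunoglobulin share of values was 22.3% and 28.2% against 18.3% and 30.1%. The part of these in the differences was not tested.

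Cells annotated as B cells were few among IgG2c cells, 16 and 38, against 1347 and 1101 IgM B cells. Of 8878 genes tested, 37 passed (0.417%; limma), 12 higher and 25 lower in IgG2c, and the median over all genes was -0.12, or 0.06 when values were scaled to the sum only, under which 10 genes were higher and 3 lower. With a pseudocount of 1 only 5 of the 37 calls were left, Itgb1, Zbtb20, Fcer2a, Sdc4 and Icosl, and without a filter on low values only 2, Zbtb20 and Fcer2a. IgG2c B cells had more RNA of Itgb1 and Zbtb20 and less of Fcer2a and Icosl. Against IgG2b B cells (22 and 23 cells), 0 genes passed in limma (0%), with 1407 at an unadjusted p under 0.05.

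Itgb1, the beta 1 integrin, had 378 and 448 units in IgG2c B cells against 49.5 and 73.1 in IgM B cells (log2 change 2.58, SE 0.18, limma, adjusted p = 0.00741). Zbtb20, a transcription factor of plasma cells and germinal centre B cells, had 331 and 417 against 71.4 and 84.9 (2.12). Basp1 had 106 and 169 against 7.73 and 4.14 (3.19). These genes were higher in both mice without overlap. Eaf2, an elongation factor gene on the list for plasma cells, changed by 2.29, the DNA glycosylase gene Neil1 by 2.28 and the linker histone gene H1f10 by 2.27. H1f10 was detected in only 1 of 16 and 3 of 38 IgG2c B cells, so its level in SLE.yaa 1 came from 1 cell. Basp1 was detected in 3 and 13 of these cells, Eaf2 in 4 and 14 and Neil1 in 4 and 13. Itgb1 was detected in 7 and 19 of them and Zbtb20 in 12 and 30. Ass1, an arginine synthesis enzyme, changed by 2.09, the adaptor gene Scimp by 1.93, Txndc11 by 1.72 and Ckap4 by 1.68.

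A marker of resting follicular B cells and genes of costimulation and the cell surface were among those that were lower. Fcer2a, which encodes the low-affinity IgE receptor CD23, had 71.0 and 58.0 units in IgG2c B cells against 356 and 271 in IgM B cells (log2 change -2.11, SE 0.15, limma, adjusted p = 0.00741). Of the 9 naive and follicular genes tested, 2 passed, both lower, Fcer2a among them, and the list's median was -0.84. Over all 8878 genes tested, 37 had passed (0.417%), 25 of them lower. Sdc4, a syndecan, changed by -2.18, Icosl, the ligand of the costimulator ICOS, by -1.94, the galectin gene Lgals9 by -1.81 and the urokinase receptor gene Plaur by -1.76. Serpinb1a changed by -1.53, the activation marker gene Cd83 by -1.47, Pxk by -1.35, Sdcbp by -1.33 and the receptor chain gene Cd79a by -0.68.

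The other lists held 3 of the calls, where 0.417% of all genes tested had passed. Of 9 germinal centre genes tested, Basp1 passed; all 9 were higher in both mice, as were 2002 of the 8878 genes, and the list's median was 2.08. Eaf2 was the 1 of 16 plasma cell genes to pass (median 1.06), and Cd79a the 1 of 18 genes of receptor signalling and sensors (median -0.50). No gene passed among 13 age-associated genes (median 0.27), 10 memory genes (1.12), 8 marginal zone genes (-0.67), 14 type I interferon genes (-0.37), 11 interferon gamma genes (-0.69), 8 MHC class II genes (-0.35) or 8 proliferation genes (-0.10).

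Some values moved with the IgG2c B cells. Neutrophil genes summed to 23.7 and 3101 units in IgG2c against 31.6 and 95.9 in IgM B cells, and 98.6% of the sum in SLE.yaa 2 came from 1 cell. Monocyte genes summed to 201 and 817 against 65.8 and 160, T cell genes to 106 and 79.1 against 48.7 and 55.7, and erythroid genes to 0 and 0 against 3.19 and 2.30. The immunoglobulin share of values was 4.58% and 9.29% against 1.09% and 1.08%, and median genes per cell were 2123.5 and 2410.5 against 1913 and 1687. The part of these in the differences was not tested, and the 16 cells of SLE.yaa 1 fell below the number of 20 cells first set as the minimum.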

How the data were processed

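Heavy chains came from the deposited B cell receptor table of 2 SLE.yaa and 2 WT mice, grouped by the labels. Per the submitters' processing notes, GRCm38 (mm10), Seurat 4.0.0 and Cell Ranger 5.0.0 were used; other steps are not given in the sources used here. The deposited receptor table holds, for each contig, counts of reads and UMIs, V identity as a fraction of bases and, as a score, the charge of the CDR3. Counts of genes and UMIs and mitochondrial UMIs in percent stand in the deposited cell table. The deposited expression values are natural logarithms of 1 plus a whole depth-adjusted number, so they are not counts and limma was used in place of a count test; 15 rows without a gene name (0.0440% of values) were left out. Cell types, clones and germline sequences are the authors'. No source used here states the authors' treatment of doublets, and none were called or removed from the deposited cells.

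Members and gene lists were chosen with earlier results of these data known. Mutation was recomputed against the germline with the D region masked, and 99.3% of 1495 deposited frequencies lay within 0.05 percentage points. Isotypes (cells) and IGHV genes (clones; at least 5 clones in 2 libraries) were tested with edgeR 4.0.16, and expression (log2 of values scaled to 1000000 plus 10, TMM factors, at least 20 plasma or 15 B cells per mouse) with limma 3.58.1 in R 4.3.3, with Benjamini-Hochberg adjustment at 0.05. Fits within SLE.yaa mice held all isotypes with enough clones or cells and had the mouse as a block, because the isotypes come from the same animal. The exact permutation tests did not use this pairing. Fold changes are on the log2(value + 10) scale and understate low genes. Mice are separate animals, and p-values rest on 2 per group. In the IGHV fits the spread was fully shared over genes, so those p-values do not measure how far a single gene varied between mice. Python 3.11.15, pandas 2.3.3 and SciPy 1.17.1 were used for the rest, and DESeq2 1.42.0 as an alternative. Fits were run on simulated data with set changes. The simulated IGHV counts held counting error and no spread between mice, so they cannot show how that fit handles such spread. Named genes are those past the threshold, the 10 IGHV genes with most IgG2c clones, the 10 largest changes each way with 1 sign in both mice, and list members past the threshold; other list members were named after their values were seen. Some of these genes are not reported here. Positions and symbols come from RefSeq's GRCm38.p6 annotation, in which 96 of 97 IGHV genes were found. Of the barcodes of IgG2c cells, 4 in SLE.yaa 1 and 2 in SLE.yaa 2 also occurred in another mouse, none with the same junction.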

Additional observations from a re-analysis of the deposited data

How the results depend on the processing

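The IgG2c excess in SLE.yaa mice passed under each alternative run: its log2 change was 7.61 over clones, 3.78 with TMM factors, 4.08 with DESeq2, 7.95 with at least 3 UMIs, 8.33 for cells in the expression table, and 7.48 to 7.71 with 1 mouse left out. The count of IGHV genes past the threshold, 1, was 0 over cells, 0 with DESeq2 and 0 with IgG2c and IgM alone, and 1 without the mouse as replicate block. In plasma cells the count of 204 genes became 130 with a pseudocount of 1, 350 when scaled to the sum only and 122 without the replicate block. In B cells the count of 37 became 5 with a pseudocount of 1, 2 without a filter on low values, 13 when scaled to the sum only, 21 without the replicate block and 90 with IgG2c and IgM alone. Over these alternatives named plasma cell genes kept their call 134 times and lost it 11 times, and named B cell genes 53 and 52 times. Chosen after seeing the data were the minimum of 15 B cells, leaving out the clone of 31 cells, and contigs with at least 100 UMIs. The last gave a mutation difference from IgM of 0.195 percentage points in place of 0.859, a CDR3 length difference of 0.892 residues in place of 0.399 and 43.7% of IgG2c cells in clones of at least 2, in place of a mean over mice of 41.0%. That mean was 38.8% without the clone of 31 cells, 30.8% at equal cell numbers and 28.2% with identical CDR3 bases, under which 6.59% of IgG2c clones held another isotype in place of 10.4%. With 1 mouse left out, the mutation difference was 0.797 to 0.922, the length difference 0.302 to 0.496 and the charge difference -0.223 to 0.00356. The cause of these changes was not tested. With 2 mice, exact tests cannot pass, and contigs with few UMIs limit the isotype of B cells.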

Other observations

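The 4 IgG2c cells of the WT mice were all mutated. WT 1 had a cell with IGHV1-82 and IGHJ4, 0.882% mutated bases and 5 UMIs, and a cell with IGHV8-8 and IGHJ4, 0.855% mutated bases and 25 UMIs. WT 2 had a clone of 2 cells with IGHV1-75 and IGHJ3, with 2.65% and 2.97% mutated bases on 1 and 4 UMIs. Only 1 of the 4 cells was annotated, as a B cell.

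Among the SLE.yaa mice, 7 IgG2c cells were annotated as neither plasma nor B cells: 3 as Mac, 1 as CD4, 1 as NK and 1 as PMN in SLE.yaa 1, and 1 as Mac in SLE.yaa 2. Their contigs had a median of 11.5 UMIs in SLE.yaa 1 and 7 in SLE.yaa 2. Doublets were not called, so a droplet with a B lineage cell and another cell was not told apart from a single cell.

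The IgG2c repertoires of the 2 SLE.yaa mice shared 1 combination of V gene, J gene and CDR3 residues, out of 338 in SLE.yaa 1 and 236 in SLE.yaa 2. The junctions are shown because they differ at 1 base, in capitals.

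SLE.yaa 1, IGHV1-80 with IGHJ3: tgtgcaagaggGgcttactgg
SLE.yaa 2, IGHV1-80 with IGHJ3: tgtgcaagaggAgcttactgg

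The clone had 2 cells with 3.59% mutated bases in SLE.yaa 1 and 1 cell with 2.10% in SLE.yaa 2.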
